A study of Schizosaccharomyces pombe with 78 samples.

Results

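The first G1/S transcription peak after release from a G2 block was compared between fission yeast (*Schizosaccharomyces pombe*) strains that differ in Nrm1, a co-repressor of MBF. The comparison used the 8 of the series' 78 libraries that were taken at 60 and 80 min from the strains Nrm1-SD and Nrm1, with 2 replicate libraries per strain and time point, chosen by their labels alone. Nrm1-SD is *cdc25-22 nrm1-SD-HA*, in which 11 CDK sites of Nrm1 are replaced by acidic residues that mimic phosphorylation. Nrm1 is *cdc25-22 nrm1-HA*, with the wild-type protein and the same HA tag. Both strains therefore carry the temperature-sensitive *cdc25-22* allele, which stops cells before mitosis, and both were grown in minimal medium, held at 36 °C and released at 25 °C, with samples every 20 min from 0 to 220 min. The study's strain list gives both as h- and gives 1 strain of each genotype, so a difference between these strains that is not due to Nrm1 cannot be told apart from one that is. An asynchronous culture of each strain served as the comparison without synchrony.

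MBF is the transcription factor that drives the G1/S wave in fission yeast. Its core is made of Cdc10, Res1 and Res2, it binds the MCB element ACGCGT, Rep2 is its co-activator, and Nrm1 and Yox1 are co-repressors that are themselves encoded by MBF target genes. CDK activity acts on this circuit, and loss of Nrm1 from MBF is linked to active transcription. Its targets make the proteins that license origins, supply nucleotides and copy and hold together the chromosomes. The comparison asks which mRNAs of the first wave differ when Nrm1 is fixed in a form that resembles the phosphorylated one.

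Depth ran from 4113051 to 8158866 reads in the 8 libraries and from 2685381 to 10469416 over the series. Values are normalized counts, that is reads divided by the size factor of the library, and were compared as log2(normalized count + 1). The 7431 features whose mean over all libraries reached 10 were tested. This scale understates the change of low features. A feature was called at an adjusted p under 0.1 (limma, Benjamini-Hochberg over all features), and a difference is Nrm1-SD minus Nrm1 on the log2 scale. The study calls the replicates biological, but the fit takes the time points of a culture as independent libraries, and 2 libraries against 2 cannot go below p = 0.333 in an exact permutation test of a single gene. Of the tested features, 91.6% overlap a gene on the other strand, and whether reads were counted by strand is not given in the sources used here, so reads of overlapping genes may be shared. In these bulk cultures, fewer cells at a stage and less RNA per cell cannot be told apart.

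At 60 min, 18 of 18 MBF targets were lower in Nrm1-SD, with a median difference of -0.73, and at 80 min 2 were lower and 1 was higher, with a median of -0.05, whose sign turned without replicate 1 of Nrm1 (0.0057) or replicate 2 of Nrm1-SD (0.031) at 80 min. Over all features the shares were 1.35% lower at 60 min (100 of 7431), 0.538% lower at 80 min (40 of 7431) and 0.35% higher at 80 min (26 of 7431), 2.44% and 0.888% in either direction, and the median of all features was 0.00 at 60 min and -0.00 at 80 min. Both Nrm1-SD libraries lay below both Nrm1 libraries for each of the 18 genes at 60 min, where 21.2% of all features did so. At 80 min this held for 6 of the 18, and 4 lay above both Nrm1 libraries (20.6% of all features lay below both and 20.2% above both). The list was written from general knowledge of MBF with earlier results of these data known. Of its members, 15 overlap a gene on the other strand.

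Within 500 bases before the start codon, ACGCGT was found in 9 of the 18 MBF targets (50%) and in 4.65% of the 4926 tested protein-coding genes. It was also found in 5 of the 10 genes of the histone list (50%), namely *hta1*, *htb1*, *hht1*, *hhf1* and *ams2*. Of the 40 protein-coding genes that were lower at 60 min outside all lists, 7 had it (17.5%). A match is only a description of the letters. ACGCGT reads the same on both strands. The 9 MBF targets without it in this window include *cdc18*, *ctp1*, *nrm1* and *cig2*. The following stretches are from genes that have it and had large differences at 60 min, to show how the element sits in their promoters. They were read from the RefSeq assembly ASM294v3, 5′ to 3′ along the gene, with ACGCGT in capitals. The *cdt1* stretch is chrII:477303-477332 on the plus strand, *cdt2* is chrI:2035744-2035773 on the minus strand, *yox1* is chrII:1648163-1648192 on the plus strand, *mik1* is chrII:221341-221370 on the plus strand and *cdc22* is chrI:4226901-4226930 on the plus strand.
cdt1: gatagctacgcgACGCGTcaacaaacgcga
cdt2: tcacggACGCGTcgcgttcACGCGTcacga
yox1: tgatatagcgcgACGCGTcgttaaacgtga
mik1: aacgcgaACGCGTcatgACGCGTcgtaaca
cdc22: tagcgtgACGCGTctgaACGCGTttttcat
The last base of each stretch lies 99 (*cdt1*), 94 (*cdt2*), 43 (*yox1*), 329 (*mik1*) and 52 (*cdc22*) bases before the start codon. Those of *cdt2*, *mik1* and *cdc22* hold the element more than once.

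Among the MBF targets, *cdt1* and *cdt2* had the largest differences at 60 min. *cdt1* (SPBC428.18), which loads the MCM helicase with Cdc18, had 665 and 658 normalized counts in the Nrm1-SD libraries at 60 min, against 2043 and 2302 in Nrm1. The difference was -1.71 (standard error 0.11, limma adjusted p = 1.1e-17). At 80 min *cdt1* had 433 and 381 normalized counts in Nrm1-SD against 506 and 504 in Nrm1, a difference of -0.31 that was not called (limma adjusted p = 0.331). The strains were thus far apart at 60 min and closer at 80 min. Their libraries still did not overlap at 80 min, where edgeR and the fit on the 8 libraries alone called *cdt1* lower. *cdc18* (SPBC14C8.07c), the licensing factor related to Cdc6, had 1397 and 1363 in Nrm1-SD at 60 min, against 2666 and 2734 in Nrm1 (-0.97, standard error 0.06, limma adjusted p = 1.1e-17). At 80 min its order was turned round, with 1440 and 1338 in Nrm1-SD against 1180 and 1097 in Nrm1 (0.29, limma adjusted p = 0.00541). That 80 min call was lost without replicate 2 of Nrm1 at 80 min (0.23, adjusted p = 0.449) and without replicate 1 of Nrm1-SD at 80 min. *cdc18* was 1 of 2 features called in opposite directions at the 2 time points. *cdt2* (SPAC17H9.19c), the ubiquitin ligase receptor through which Cdt1 and Spd1 are destroyed, had 540 and 594 in Nrm1-SD at 60 min against 1733 and 1753 in Nrm1 (-1.62, standard error 0.10). At 80 min *cdt2* had 709 and 583 in Nrm1-SD against 695 and 634 in Nrm1, and the libraries overlapped. In asynchronous cultures *cdt1* was also lower in Nrm1-SD (difference -1.005), while *cdc18* and *cdt2* were not called (0.02 and -0.17).

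The co-repressors of MBF differed in the same direction. *nrm1* itself (SPBC16A3.07c), which is mutated but not deleted in Nrm1-SD, had 743 and 771 normalized counts in Nrm1-SD at 60 min, against 1262 and 1250 in Nrm1 (-0.73, standard error 0.13, limma adjusted p = 0.000135). At 80 min it had 964 and 903 in Nrm1-SD against 973 and 1012 in Nrm1, and was not called. *yox1* (SPBC21B10.13c), which encodes the partner repressor, had 345 and 411 in Nrm1-SD at 60 min against 914 and 930 in Nrm1 (-1.29, standard error 0.10, limma adjusted p = 2.36e-14). At 80 min *yox1* was still lower, with 522 and 482 in Nrm1-SD against 804 and 770 in Nrm1 (-0.65, limma adjusted p = 2.15e-05). Neither gene overlapped between strains at either time point.

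Among the genes for MBF subunits, *cdc10* (SPBC336.12c) was lower at 60 min. It had 395 and 404 normalized counts in Nrm1-SD against 610 and 570 in Nrm1 (-0.56, limma adjusted p = 4.3e-07), and at 80 min 521 and 482 in Nrm1-SD against 575 and 604 in Nrm1 (-0.23, not called). The genes for the DNA-binding subunits Res1 and Res2 and for the co-activators were not called at either time point. Their differences at 60 min were 0.18 for *res1*, -0.27 for *res2*, 0.29 for *rep1* and 0.08 for *rep2*. *cig2*, the G1/S cyclin of the circuit, had 1768 and 1741 normalized counts in Nrm1-SD at 60 min against 2365 and 2299 in Nrm1 (-0.41, limma adjusted p = 0.00447). In asynchronous cultures *cig2* was higher in Nrm1-SD (0.73), so its order there was the opposite of that at 60 min. The list of MBF subunits, co-regulators and *cig2* holds 8 genes. Of these, 4 (*cdc10*, *cig2*, *nrm1* and *yox1*) were lower at 60 min and 1, *yox1*, at 80 min. Over all features, 1.35% were lower at 60 min and 0.538% at 80 min. *nrm1*, *yox1* and *cig2* are also among the 18 MBF targets counted above.

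**Figure D1:**
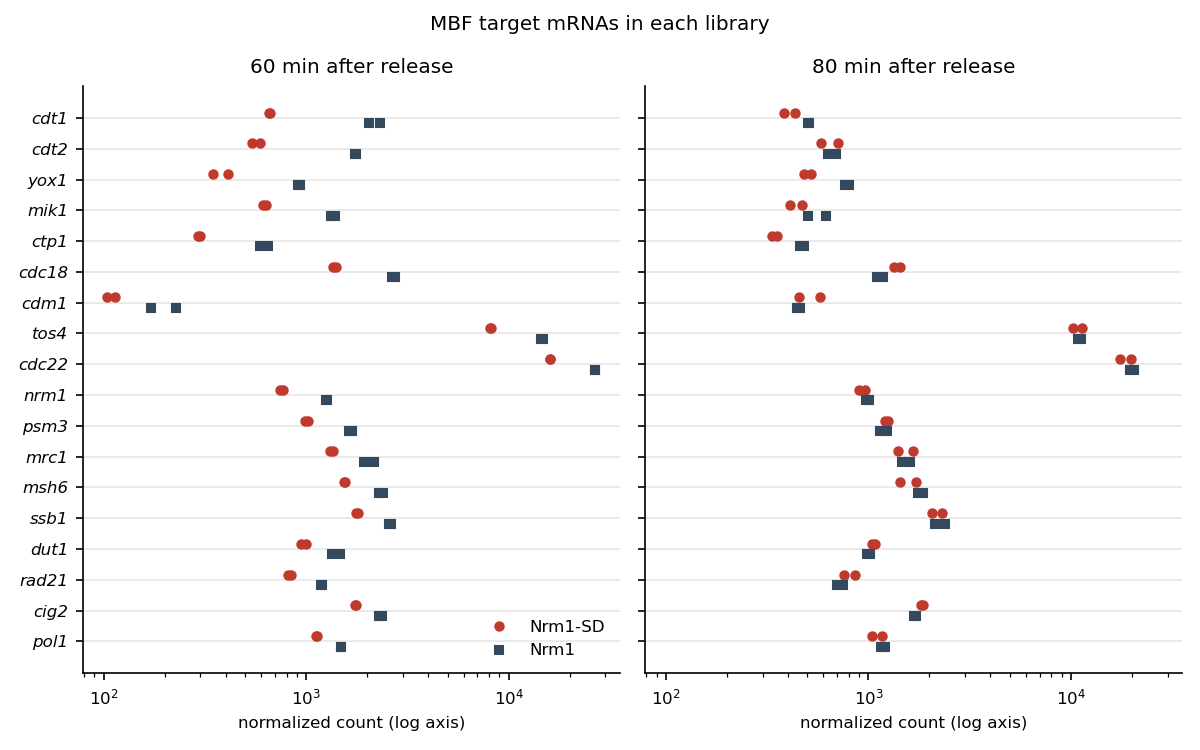
Normalized counts (log axis) of the 18 MBF targets in each library at 60 min (left) and 80 min (right), with circles for the 2 Nrm1-SD libraries and squares for the 2 Nrm1 libraries. At 60 min both circles lie left of both squares for each of the 18 genes, and at 80 min they do so for 6 genes and lie right of both squares for 4.

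The other MBF targets act in nucleotide supply, replication, cohesion and repair. *cdc22* (SPAC1F7.05), the large subunit of ribonucleotide reductase and the most abundant of them, had 16070 and 15990 normalized counts in Nrm1-SD at 60 min, against 26631 and 26761 in Nrm1 (-0.74, standard error 0.08, limma adjusted p = 1.33e-09). At 80 min it had 19687 and 17402 in Nrm1-SD against 20410 and 19471 in Nrm1, and the libraries overlapped. *tos4* (SPAP14E8.02) had 8037 and 8187 in Nrm1-SD at 60 min against 14841 and 14433 in Nrm1 (-0.85). Its values at 80 min, 11366 and 10256 in Nrm1-SD against 11228 and 10860 in Nrm1, could not be separated by strain. *mik1*, the kinase that inhibits Cdc2 by tyrosine phosphorylation, had 610 and 635 in Nrm1-SD at 60 min against 1381 and 1330 in Nrm1 (-1.12), and was also lower in asynchronous Nrm1-SD (-1.36). *ctp1* (SPCC338.08), which starts the resection of DNA breaks, was the other gene that was lower at both time points. It had 292 and 298 in Nrm1-SD at 60 min against 651 and 590 in Nrm1 (-1.07), and 354 and 335 in Nrm1-SD at 80 min against 482 and 458 in Nrm1 (-0.45, limma adjusted p = 0.000654).

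The other 8 targets differed by -0.40 to -0.85 at 60 min. They were the dUTPase gene *dut1* (-0.54), the DNA polymerase genes *pol1* (-0.40) and *cdm1* (-0.85), the replication protein A gene *ssb1* (-0.55), the fork checkpoint gene *mrc1* (-0.61), the cohesin genes *rad21* (-0.52) and *psm3* (-0.72) and the mismatch repair gene *msh6* (-0.60). None of them was called at 80 min, where their differences were between -0.20 and 0.18. The call of *cdm1* at 60 min was near the threshold (limma adjusted p = 0.0952) and was lost in 6 of the 8 fits that left out 1 library, with an adjusted p of up to 0.72 without replicate 2 of Nrm1 at 60 min. That of *pol1* (adjusted p = 0.0132) was lost in 3 of them, without either replicate of Nrm1 at 60 min or without replicate 1 of Nrm1-SD at 60 min, with an adjusted p of up to 0.141. With only the 8 libraries in the fit, 4 targets were called lower at 80 min in place of 2, with *cdt1* and *mik1* added. edgeR called 3 lower there, with *cdt1* added.

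The change of the difference between the 2 time points was tested directly. It was positive, that is the strains came closer or crossed, for 13 of the 18 MBF targets, against 0.336% of all features (25 of 7431), while 0.256% had a negative change and 0.592% a change in either direction. The largest changes among the targets were those of *cdt2* (1.57, limma adjusted p = 6.01e-11), *cdt1* (1.40, limma adjusted p = 9.28e-09) and *cdc18* (1.25, limma adjusted p = 2.07e-15). The difference at 60 min also differed from that in asynchronous cultures for 12 of the 18 targets, all in the lower direction. Over all features, that test called 73 (0.982%), with 0.727% in the lower direction.

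The time course around the peak showed when each strain reached its highest level. The median MBF target in Nrm1-SD was at 37% and 39% of the mean level of Nrm1 at 60 min (replicates 1 and 2) at 40 min, at 59% and 61% at 60 min, at 74% and 67% at 80 min and at 50% and 48% at 100 min. In Nrm1 it was at 58% and 53% at 40 min, at 100% and 100% at 60 min, at 77% and 72% at 80 min and at 36% and 34% at 100 min. At the block itself, at 0 min, it was at 39.2% and 38.1% in Nrm1-SD against 28.1% and 31.1% in Nrm1, at 20 min at 30.9% and 32.7% in Nrm1-SD against 33.1% and 35.8% in Nrm1, and at 120 min at 42.0% and 41.6% in Nrm1-SD against 27.8% and 28.2% in Nrm1. Nrm1-SD was thus above Nrm1 at 0 min, below it from 20 to 60 min, near it at 80 min and above it at 100 and 120 min.

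Between 20 and 120 min, the maximum of a target fell at 60 min for 17 and 16 of 18 genes in the Nrm1 cultures. In the Nrm1-SD cultures it fell at 60 min for 2 and 6 genes and at 80 min for 12 and 8, so the time of the maximum differed between these replicates for several genes. The maxima themselves were lower in both Nrm1-SD cultures than in both Nrm1 cultures for 17 of 18 targets, with *cdm1* as the exception, against 19.3% of all features. The median difference of the maxima was -0.44. When Nrm1-SD at 80 min was set against Nrm1 at 60 min, 17 targets were lower and 1, *cdm1*, was higher, with a median of -0.48. In that comparison 8.46% of all features were called lower and 10.4% higher. These comparisons share the Nrm1 libraries of 60 min with the one within 60 min, and the maxima, which rest on 20 min steps, were not tested.

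**Figure D2:**
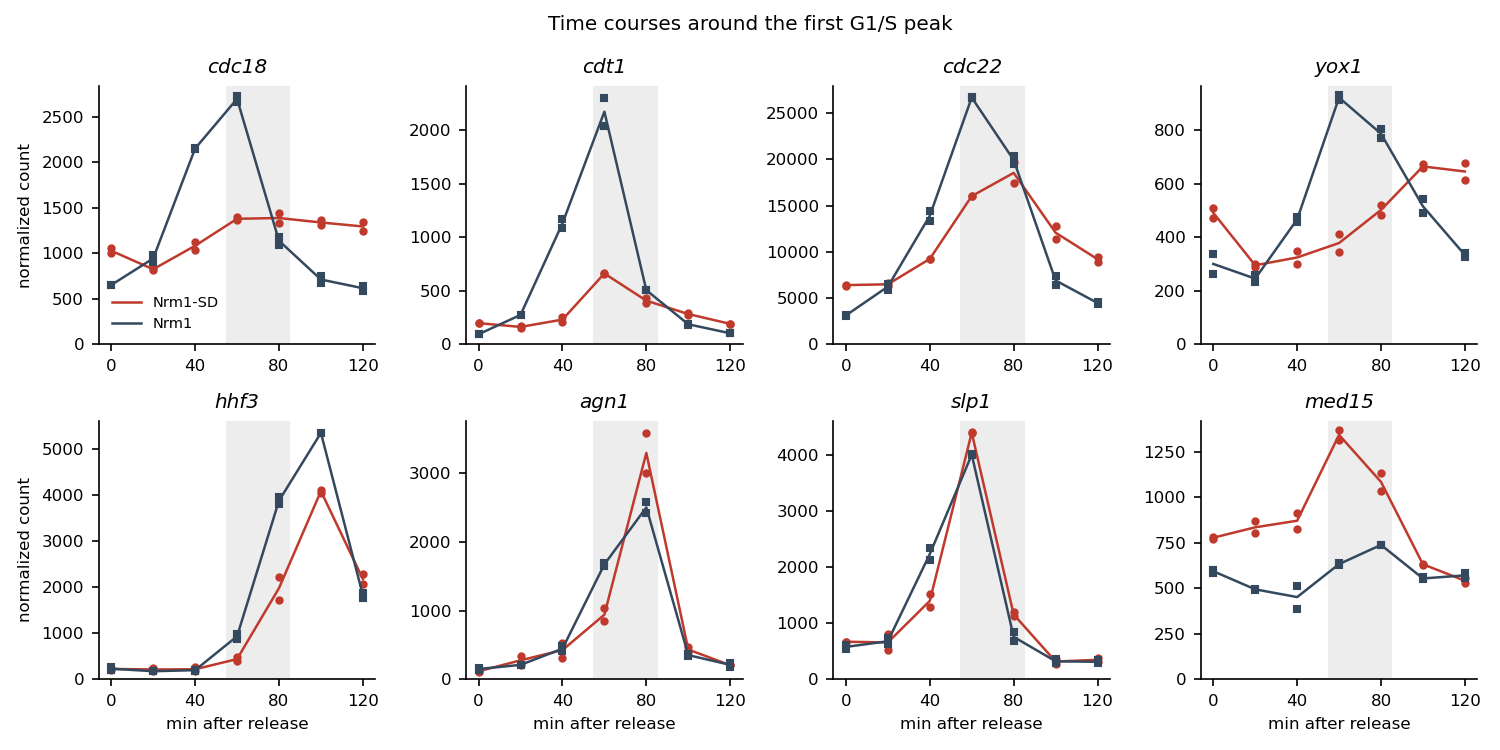
Normalized counts of 8 genes from 0 to 120 min after release, with circles for Nrm1-SD and squares for Nrm1, 1 point per library, a line through the mean of the 2 libraries, and the times 60 and 80 min shaded. *cdc18*, *cdt1*, *cdc22* and *yox1* peak at 60 min in Nrm1 and stay lower there in Nrm1-SD, *hhf3* is lower at both shaded times, *agn1* is lower at 60 min, *slp1* is higher at 80 min and *med15* is higher at both.

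Histone mRNAs were lower in Nrm1-SD at both time points. They rise with S phase in fission yeast, under the GATA-type factor Ams2, which acts through a conserved AACCCT box upstream of histone genes. Of the 9 core histone genes, 8 were lower at 60 min (median -0.61) and 7 at 80 min (median -0.56), against 1.35% and 0.538% of all features. *hhf3* (SPBC1105.12), for histone H4, had 393 and 478 normalized counts in Nrm1-SD at 60 min, against 880 and 982 in Nrm1 (-1.10, standard error 0.17, limma adjusted p = 9.14e-06). At 80 min it had 1728 and 2231 in Nrm1-SD against 3813 and 3952 in Nrm1 (-0.98, limma adjusted p = 0.000146). The strains did not overlap at either time, and both had higher values at 80 than at 60 min. The H3 gene *hht1* had 1122 and 1354 in Nrm1-SD at 60 min against 1959 and 2144 in Nrm1 (-0.73), and 4039 and 4630 in Nrm1-SD at 80 min against 6266 and 6856 in Nrm1 (-0.60, limma adjusted p = 0.0104). Its 80 min call was lost without replicate 2 of Nrm1 or replicate 1 of Nrm1-SD at 80 min (adjusted p of up to 0.479). *hht3* was lower by -0.81 at 60 min and -0.69 at 80 min, and the H4 gene *hhf2* by -0.45 and -0.74.

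The exceptions among core histones were *hht2*, which was not called at 60 min (-0.19), and *hta1* and *htb1*, which were not called at 80 min (-0.44 and -0.29). Copies of H3 and H4 genes are near-identical, so the counting may have moved reads between them. *ams2* (SPCC290.04), the gene for the histone activator, had 1265 and 1219 normalized counts in Nrm1-SD at 60 min against 2097 and 2048 in Nrm1 (-0.74, limma adjusted p = 1.29e-06). At 80 min *ams2* did not differ detectably, with 1259 and 981 in Nrm1-SD against 1175 and 1068 in Nrm1 (-0.01). Its difference changed between the time points (0.73, limma adjusted p = 0.00581), whereas the changes of the core histones lay between -0.29 and 0.26 and were not called.

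In the 500 bases before the start codon, AACCCT on either strand was found in all 9 core histone genes, 2 times in each, against 15.2% of all tested protein-coding genes. Stretches of *hhf3* (ASM294v3, chrII:3529618-3529647, plus strand) and *hht1* (chrI:4699643-4699672, plus strand) show the shared arrangement, with AACCCT in capitals.
hhf3: tttgatcacAACCCTAACCCTttaattaaa
hht1: ctgcatcaaAACCCTAACCCTgcttttgat
The same tandem stands in both genes, which were lower at both times.

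The levels of the histones followed the time course in both strains. The median core histone gene in Nrm1-SD was at 62.9% and 66.1% of the Nrm1 level of 60 min at 60 min, at 168.2% and 186.3% at 80 min and at 261% and 249% at 100 min. In Nrm1 it was at 95.5% and 105% at 60 min, at 254% and 263% at 80 min and at 305% and 302% at 100 min. Both Nrm1-SD cultures were lower at each of these times, but higher at 0 min, with 49.6% and 44.5% in Nrm1-SD against 34.8% and 40.9% in Nrm1, and at 120 min, with 169.3% and 160.3% in Nrm1-SD against 149% and 140% in Nrm1. At 20 min they were also higher, with 35.3% and 42.9% in Nrm1-SD against 34.7% and 34.7% in Nrm1.

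Genes that mark the end of mitosis and cell separation were examined because the stage of the cultures bears on every comparison at a fixed time. Several genes of cell separation were lower in Nrm1-SD at 60 min and were not called at 80 min. *agn1* (SPAC14C4.09), the alpha-glucanase that dissolves the septum edge, had 845 and 1034 normalized counts in Nrm1-SD at 60 min against 1650 and 1698 in Nrm1 (-0.84, standard error 0.16, limma adjusted p = 0.000556). At 80 min it had 3594 and 3005 in Nrm1-SD against 2582 and 2428 in Nrm1 (0.39, limma adjusted p = 0.531). The libraries did not overlap at either time, but stood in opposite orders. The anillin-like septum gene *mid2* was lower by -0.63 at 60 min and stood at 0.18 at 80 min, and *cfh4* and *adg3* were lower by -0.64 and -0.52 at 60 min. The calls of *cfh4* and *adg3* were lost without replicate 2 of Nrm1 or replicate 1 of Nrm1-SD at 60 min (adjusted p of up to 0.227 and 0.432). The difference changed between the time points for *agn1* (1.23, limma adjusted p = 0.0018), *mid2* (0.80) and *cfh4* (0.94). These septum genes moved with the MBF targets at 60 min, and their part in the MBF and histone results was not tested.

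At 80 min, 4 genes of mitosis and cytokinesis, from 3 lists, were called higher in Nrm1-SD, and none of the 4 calls held without each library in turn. *slp1* (SPAC821.08c), the activator of the anaphase-promoting complex, had 1188 and 1116 normalized counts in Nrm1-SD against 831 and 674 in Nrm1 (0.62, limma adjusted p = 0.0138), after 4396 and 4386 in Nrm1-SD and 3990 and 4008 in Nrm1 at 60 min, where it was not called. *cdc15*, an F-BAR protein of the contractile ring, had 1365 and 1119 in Nrm1-SD at 80 min against 875 and 788 in Nrm1 (0.57), and *chs2* had 297 and 256 in Nrm1-SD against 182 and 167 in Nrm1 (0.66). The forkhead gene *fkh2* was higher by 0.41. The strains did not overlap for these genes at 80 min, while their levels were falling in both strains after 60 min. Each of the 4 calls was lost without replicate 2 of Nrm1 or without replicate 1 of Nrm1-SD at 80 min, with adjusted p of up to 0.781 (*slp1*), 0.391 (*cdc15*), 0.669 (*chs2*) and 1.00 (*fkh2*). Of 14 mitotic regulators 1 (*fkh2*) was higher at 80 min, and of 19 ring and septum genes 2 were, against 0.35% of all features. At 80 min edgeR called 3 mitotic regulators higher, DESeq2 1 and the fit on the 8 libraries alone 4. These fits called 2, 2 and 3 ring and septum genes higher. An unadjusted p under 0.05 (limma) was found there for 6 mitotic regulators and 4 ring and septum genes. limma called no member of either list at 60 min, where 2 of each had an unadjusted p under 0.05 and edgeR called 1 mitotic regulator. The summed level of the mitotic regulators was 7285 and 6455 normalized counts in Nrm1-SD at 80 min against 6218 and 6013 in Nrm1, and at 60 min the strains overlapped, with 9385 and 9200 in Nrm1-SD against 9197 and 9385 in Nrm1.

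Most other replication and chromosome genes were near 0 at both time points. The shares of all features called were 1.35% lower and 1.09% higher at 60 min, and 0.538% lower and 0.35% higher at 80 min. Of 23 licensing genes outside the MBF list, which include the MCM helicase and the origin recognition complex, 1 was called at 60 min (*mcm6*, 0.29) and none at 80 min by limma, edgeR or DESeq2 (0 also at an unadjusted p under 0.05), with medians of 0.03 and 0.00. Of 22 polymerase and fork genes 2 were lower at 60 min. These were *cdc20*, for the catalytic subunit of DNA polymerase epsilon (-0.38), and the helicase gene *pfh1* (-0.27). The translesion polymerase gene *rev1* had 191 and 195 normalized counts in Nrm1-SD at 60 min against 329 and 313 in Nrm1 (-0.73, limma adjusted p = 0.0008). It kept its call without each library in turn and was not called at 80 min.

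The cohesin list gave 2 lower genes of 8 at 60 min (*pds5*, -0.35, and *psm1*, -0.29), and the centromere list 1 of 12, the centromeric histone gene *cnp1* (-0.54). Among all features 1.35% were lower and 1.09% higher at 60 min, and 0.538% lower and 0.35% higher at 80 min. Of 13 genes of CDK control, 2 were higher at 60 min. *cdc2*, the CDK itself, had 407 and 392 normalized counts in Nrm1-SD against 336 and 317 in Nrm1 (0.29), and the kinase gene *cdr2*, which acts on Wee1, had 581 and 522 in Nrm1-SD against 412 and 460 in Nrm1 (0.34). At 60 min edgeR called 2 genes of that list higher and 1 lower, and DESeq2 called 1 higher. The fit on the 8 libraries alone called 3 higher and 1 lower there. *slp1*, given above, was the 1 gene of that list that was higher at 80 min. Of 5 genes of nucleotide supply outside the MBF list, *spd1* was lower at 80 min. It encodes an inhibitor of ribonucleotide reductase and had 172 and 167 in Nrm1-SD against 237 and 289 in Nrm1 (-0.62, limma adjusted p = 0.0127). No gene of the stress list (13 genes) or the zinc list (6 tested) was called at either time by limma, edgeR or DESeq2. At an unadjusted p under 0.05 there were 1 and 2 stress genes at 60 and 80 min and no zinc gene.

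Most of these single calls were not stable. DESeq2 did not call *mcm6* (adjusted p = 0.249), *cdc2* (0.158), *cnp1* (0.184) or *psm1* (0.169), and edgeR did not call *psm1* (0.105). The calls of *mcm6*, *pfh1* and *cnp1* were lost without any 1 of the 4 libraries of 60 min, with adjusted p of up to 0.543, 0.292 and 0.346. That of *cdc20* was lost without replicate 1 of Nrm1 at 60 min (0.127) and those of *cdr2*, *cdc2*, *pds5* and *psm1* in 2, 3, 3 and 8 of the 8 fits that left out 1 library, with adjusted p of up to 0.52, 0.439, 0.408 and 0.645. The libraries at issue were both strains' at 60 min and, for *psm1*, also those of 80 min. That of *spd1* was lost in 3 of them, without replicate 2 of Nrm1 or either replicate of Nrm1-SD at 80 min (up to 0.767).

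**Figure D3:**
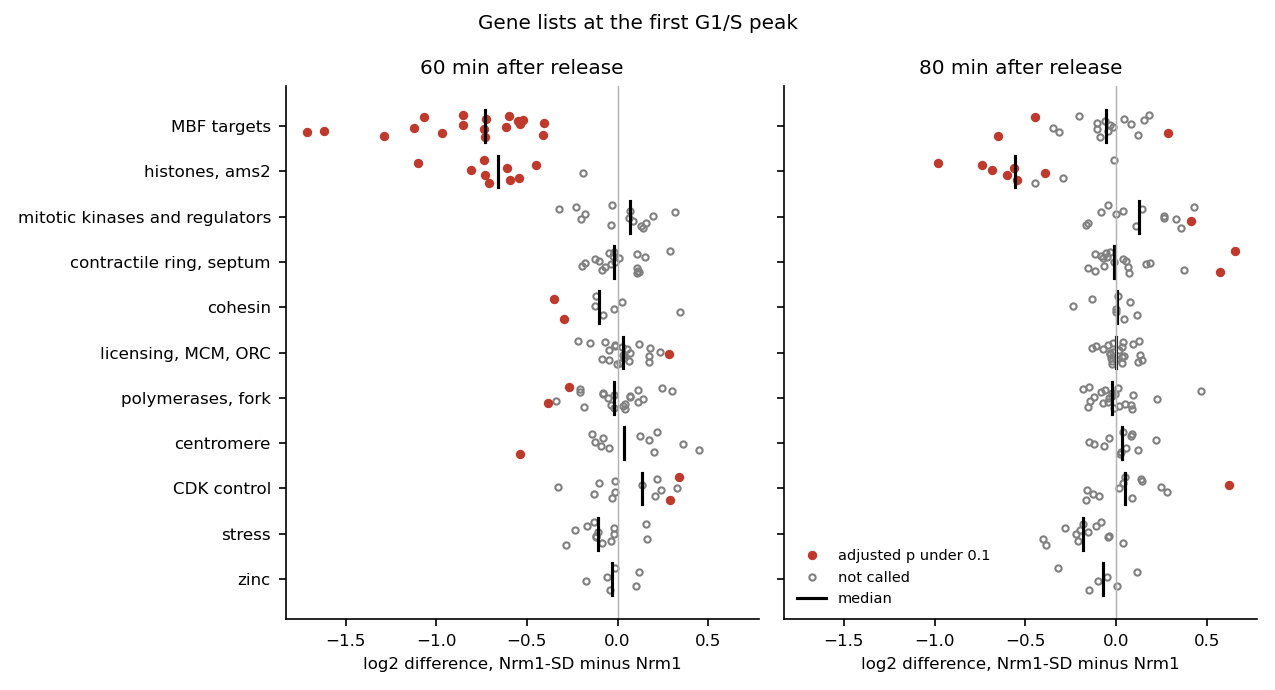
Log2 difference, Nrm1-SD minus Nrm1, of each member of 11 gene lists at 60 min (left) and 80 min (right), with filled red circles for genes called at an adjusted p under 0.1, open circles for genes not called and a black bar for the median. The MBF targets lie to the left at 60 min (median -0.73) and around 0 at 80 min (median -0.05), and the histones lie to the left at both times.

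A wider G1/S list was taken from Nrm1 libraries of the second cycle, which the first peak does not use. It holds the 158 features that were higher by at least 1 on the log2 scale at 180 and 200 min than at 120 and 140 min (limma, adjusted p under 0.1). They come from the same Nrm1 cultures. At 60 min, 34 of them were lower and 3 higher in Nrm1-SD (median -0.23), and at 80 min 4 were lower and 9 higher (median 0.15). Without the 16 that are MBF targets, 18 of 142 were lower and 3 higher at 60 min, and 3 were lower and 8 higher at 80 min, with medians of -0.18 and 0.17. The list includes 47 noncoding RNAs, of which 4 were lower at 60 min. Beside these counts, 1.35% of all features were lower and 1.09% higher at 60 min, and 0.538% lower and 0.35% higher at 80 min.

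**Figure D4:**
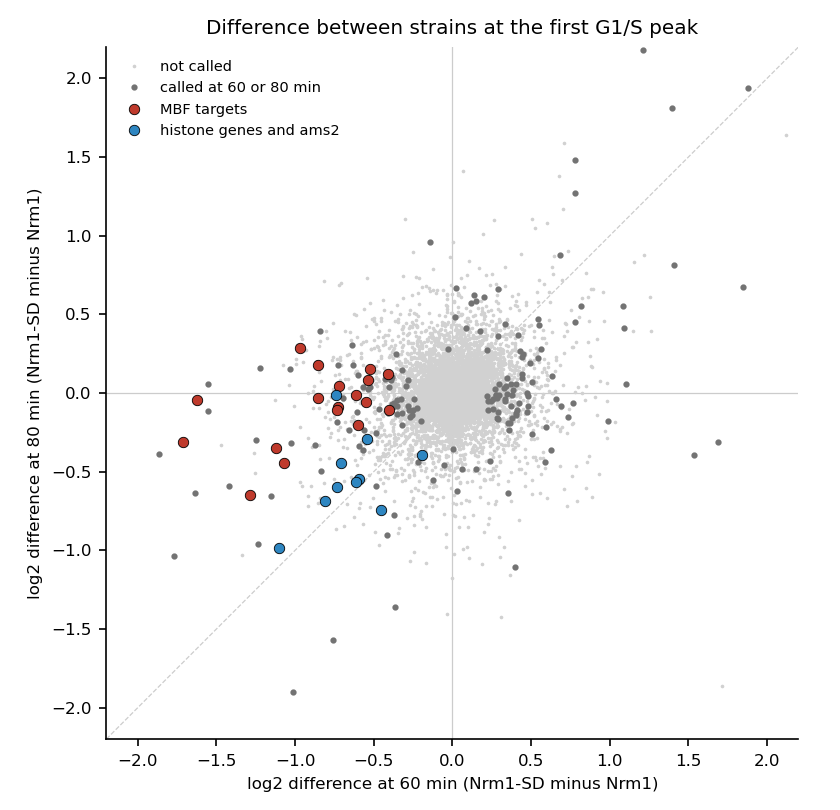
Log2 difference, Nrm1-SD minus Nrm1, of each tested feature at 60 min (horizontal axis) against that at 80 min (vertical axis), with 19 features beyond the axes at 2.2 not drawn. Dark grey points were called at 60 or 80 min. Coloured points are MBF targets (red) and histones with *ams2* (blue). The dashed line marks equal differences. The MBF targets spread to the left along 0 at 80 min, whereas most histone genes lie near the dashed line.

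Over all 7431 features, 81 (1.09%) were higher and 100 (1.35%) lower in Nrm1-SD at 60 min, and 26 (0.35%) were higher and 40 (0.538%) lower at 80 min. Both time points shared 35 calls, which were 19.3% of those at 60 min and 53% of those at 80 min. Of the shared calls 23 were lower at both times, 10 were higher at both and 2 were opposite. The 2 were *cdc18* and SPAC1039.02, which had 1592 and 1302 normalized counts in Nrm1-SD at 60 min against 993 and 922 in Nrm1 (0.59), and 1425 and 1610 in Nrm1-SD at 80 min against 1961 and 2140 in Nrm1 (-0.44). SPAC1039.02 was named after its values were seen. In asynchronous cultures, where 2.4% of features were called (1.55% higher and 0.848% lower), 13 of the 23 were also lower in Nrm1-SD and 6 of the 10 were also higher.

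Several of the largest differences were thus present without synchrony. *gdt1* (SPAC186.05c) had 36.7 and 33.9 normalized counts in Nrm1-SD at 60 min against 784 and 737 in Nrm1, and 39.8 and 37.8 in Nrm1-SD at 80 min against 941 and 931 in Nrm1. Its difference was -4.39 at 60 min, -4.56 at 80 min and -5.17 in asynchronous cultures. Its neighbours SPAC186.04c and SPAC186.06 were lower at both times too (-4.13 and -3.25 at 60 min), as was SPAC750.01 (-3.15). Not all features nearby were lower. SPAC186.03, at low counts, was called at neither time (1.71 at 60 min and -1.86 at 80 min). SPNCRNA.4497 was at 0 in Nrm1 at 60 min and at least 6.09-fold higher in Nrm1-SD, against a floor of 3 reads per library. *pfl9*, which lies on the same side of *gdt1*, was also higher at 60 min. Subtelomeric genes such as these have close copies, so their reads may have been split. The 60 min call of SPAC186.06 was lost without replicate 1 of Nrm1 at 60 min (adjusted p = 0.1002).

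Genes of mating differed in both directions. *mfm2*, for the M-factor pheromone, had 31.7 and 24.7 normalized counts in Nrm1-SD at 60 min against 249 and 228 in Nrm1 (-3.04), and *spo6*, the partner of a meiotic kinase, had 31.7 and 31.2 in Nrm1-SD against 302 and 281 in Nrm1 (-3.17). *ste6*, the exchange factor that activates Ras1 in mating, was lower at 60 min, with 250 and 221 in Nrm1-SD against 606 and 661 in Nrm1 (-1.42). At 80 min limma did not call *ste6*, but edgeR, DESeq2 and the fit on the 8 libraries alone called it lower. Its difference at 80 min ran from -0.64 to -0.54 over the alternatives. *map3*, for the receptor of M-factor, went the other way, with 136 and 151 in Nrm1-SD at 60 min against 87.6 and 78.4 in Nrm1 (0.78), and 152 and 146 in Nrm1-SD at 80 min against 56.7 and 66.6 in Nrm1 (1.27). M-factor is made by h- cells and Map3 by h+ cells. For strains that are both listed as h-, *mfm2* was thus lower and the receptor gene of the other mating type higher in Nrm1-SD. Other members of the mating list, *mfm1*, *mam1*, *mam2* and *map2*, were called by limma at neither time. Their maxima between 20 and 120 min differed by -0.56, -0.14, -0.06 and 0.21, and overlapped between the strains for all but *mam1*. The mating type of the cultures was not checked beyond the values given here. SPMTR.01, a feature that the annotation used here does not name, had 109 and 130 in Nrm1-SD at 60 min and 141 and 148 at 80 min, and 0 in each Nrm1 library. Against a floor of 3 reads per library this was at least 39.4-fold higher at 60 min and at least 48.5-fold higher at 80 min. The mating-type gene *mat1-Mi* had 16.9 and 3.91 normalized counts in Nrm1-SD at 60 min against 0.749 and 2.77 in Nrm1, and 13.3 and 16.0 in Nrm1-SD at 80 min against 1.35 and 0.965 in Nrm1, and was below the filter. In all, limma called 3 of the 14 tested mating genes lower and 1 higher at 60 min, and 2 lower and 1 higher at 80 min. edgeR, DESeq2 and the fit on the 8 libraries alone called 4, 3 and 4 lower at 60 min, and 1 higher each. At 80 min each of them called 3 lower, and they called 2, 1 and 3 higher. The shares of all features were 1.35% lower and 1.09% higher at 60 min, and 0.538% lower and 0.35% higher at 80 min. The 60 min call of *map3* was lost without replicate 2 of Nrm1 or of Nrm1-SD at 60 min (adjusted p of up to 0.187). The part of mating state in the other results was not tested.

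Noncoding RNAs beside coding genes were among the differences at both times. *med15*, a subunit of the Mediator tail, had 1371 and 1315 normalized counts in Nrm1-SD at 60 min against 637 and 628 in Nrm1 (1.09, limma adjusted p = 1.34e-13), and 1133 and 1036 in Nrm1-SD at 80 min against 740 and 736 in Nrm1 (0.55). SPNCRNA.4965, which overlaps it on the other strand, had 620 and 694 in Nrm1-SD at 60 min against 44.9 and 55.4 in Nrm1 (3.69). Reads of these features cannot be told apart if the counting ignored strand. *mal1*, the maltase gene, was higher at both times (1.88 and 1.94), with 658 and 557 in Nrm1-SD at 60 min against 146 and 184 in Nrm1, while SPNCRNA.1317 on its other strand was lower (-1.51 and -2.70). SPNCRNA.4043 was at 0 in each Nrm1-SD library at these times, against 49.4 and 44.3 in Nrm1 at 60 min and 49.9 and 44.4 at 80 min, which is at least 11.3-fold and 11.2-fold lower on the same floor. SPNCRNA.388, SPNCRNA.5499 and the coding gene SPBC23G7.10c were lower as well, by -2.25, -3.74 and -2.81 at 60 min, and all of them lie beside the mating-type genes *mat1-Mi* and *mat1-Mc* in ASM294v3. SPNCRNA.6641 was higher (2.88). The 60 min call of SPNCRNA.1317 was lost in 3 of the 8 fits that left out 1 library, without either replicate of Nrm1 or replicate 1 of Nrm1-SD at 60 min (adjusted p of up to 0.325).

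Other coding genes that differed at both times were not called in asynchronous cultures. They were *pht1*, for the histone variant H2A.Z (-0.57 at 60 min and -0.36 at 80 min), *kpa1* (-0.49 and -0.59), the exocyst gene *sec5* (0.34 and 0.44), *mmp2* (0.68 and 0.88), SPBPB2B2.18 (3.03 and 1.96) and SPAC869.03c (1.40 and 1.81). *kpa1* had 625 and 607 normalized counts in Nrm1-SD at 60 min against 831 and 899 in Nrm1, and kept both calls without each library in turn. The calls at 80 min of *pht1* and SPBPB2B2.18 and both calls of *sec5* and SPAC869.03c were lost without at least 1 library, with adjusted p of up to 0.555, 0.688, 0.242 and 0.66. The libraries were those of 80 min for *pht1*, replicate 1 of Nrm1 or Nrm1-SD at 60 min and replicate 2 of Nrm1-SD at 80 min for *sec5*, and mostly those of either strain at the same time for the others. The 60 min calls of SPBPB2B2.18 and *mmp2* were lost without replicate 2 and replicate 1 of Nrm1 at 60 min (0.171 and 0.112).

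**Figure D5:**
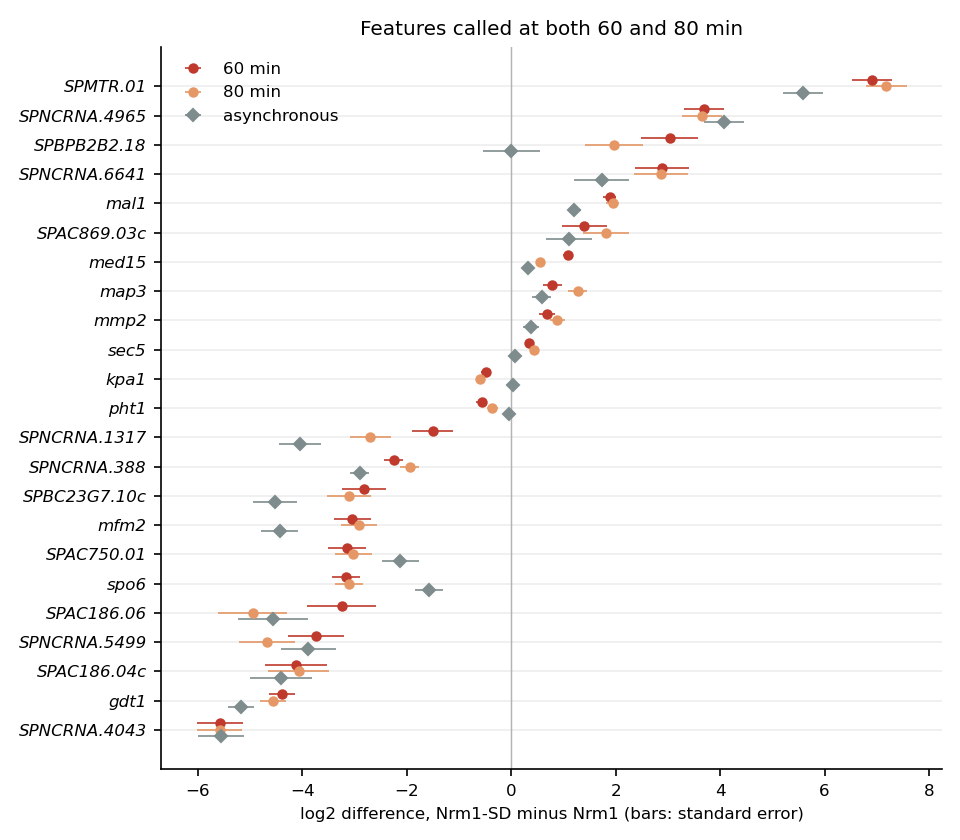
Log2 difference, Nrm1-SD minus Nrm1, of 23 named features called in the same direction at 60 min (red circles) and 80 min (orange circles), with the asynchronous difference (grey diamonds), on a linear axis of log2 values with bars for the standard error. SPMTR.01 (at 0 in Nrm1) and SPNCRNA.4043 (at 0 in Nrm1-SD) are drawn at fitted values that are not bounds. *gdt1*, at -4.39, -4.56 and -5.17, was low in each condition, whereas *kpa1* and *pht1* lie near 0 in asynchronous cultures.

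A few genes outside the lists were called by limma at 1 time point with a difference that itself changed between the times. *pfl9* and *gsf2*, for cell surface flocculins, were higher at 60 min (1.85 and 0.99), as was *rds1* (1.53). *pfl9* had 369 and 327 normalized counts in Nrm1-SD at 60 min against 99.6 and 92.3 in Nrm1, and 357 and 336 in Nrm1-SD at 80 min against 217 and 216 in Nrm1. Its 80 min difference (0.67, limma adjusted p = 0.165) was called by edgeR (0.0703), DESeq2 (0.0823), the fit on the 8 libraries alone and the replicate block (0.0376). It was also higher in asynchronous Nrm1-SD (2.16). *klp8*, a kinesin gene, was lower at 60 min (-0.41), and SPAPB24D3.07c and *pls1* were lower at 80 min (-0.64 and -0.43). The calls of *rds1*, *gsf2*, *klp8*, SPAPB24D3.07c and *pls1* were lost without 1 or 2 of the libraries of the same time, with adjusted p of up to 0.345, 0.182, 0.14, 0.449 and 1.00. For *rds1* these were replicate 2 of Nrm1 and replicate 1 of Nrm1-SD, with 219 and 120 in Nrm1-SD at 60 min against 59.2 and 51.7 in Nrm1.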

How the data were processed

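RNA of synchronized and asynchronous fission yeast cultures was prepared with hot phenol and sequenced as polyA libraries with a directional kit. Per the study's methods, the authors aligned reads with STAR, counted them per feature with HTSeq and normalized them with DESeq2. FastQC, Trimmomatic and ASM294v2 are also named in the submitters' processing notes. The deposited values are a signal that is never negative, counts divided by the size factor of each library. All of them were whole multiples (within 0.01) of the value of 1 read in their library, so reads could be recovered. The table has 12683 features, and no column of it was left out as belonging to no sample.

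In R 4.3.3, log2(normalized count + 1) of the 7431 features whose mean reached 10 was fitted with limma 3.58.1, using an intensity trend and 1 mean for each of the 39 strain and time conditions. The strain Nrm1-SA entered only to estimate the spread. Its 140 min replicates, which differed by less than sampling noise allows, were counted as 1 sample, which left 77 libraries. The Benjamini-Hochberg adjusted p threshold of 0.1 is the study's. Alternatives were edgeR 4.0.16 and DESeq2 1.42.0 on recovered reads, other pseudocounts, filters, scalings and thresholds, a replicate block and leaving out each of the 8 libraries. The scripts were tested on simulated data. Same-numbered replicates of the strains correlated in their deviations at 0.052 at 60 min and 0.0765 at 80 min, so they were not taken as paired.

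Named genes were *nrm1* and all genes of the MBF lists, up to 4 called genes of each other list with the largest mean differences, the largest differences called in the same direction at both times without overlap (8 coding genes and 4 noncoding RNAs each way) and the 3 largest each way that were called at 1 time only with a changed difference. Members of the histone list outside this rule and SPAC1039.02, *mat1-Mi* and *ams2* were added after their values were seen. Gene lists and rule were chosen with earlier results of these data known. The comparison of 80 min with 60 min between strains and the times of maxima were also added later. Names, neighbours and promoter stretches came from RefSeq ASM294v3, with 12603 features matched. A few items are not reported here. Because the files' build differs, no gene coordinates are given. Computations outside R used Python 3.11.15, numpy 2.4.6, pandas 2.3.3, scipy 1.17.1 and matplotlib 3.10.9.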

Additional observations from a re-analysis of the deposited data

Results flagged for a closer look

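The difference between Nrm1-SD and Nrm1 itself differed between 60 and 80 min (limma, adjusted p under 0.1) for 25 named genes. The values that follow are the difference at 80 min minus that at 60 min, on the log2 scale. Among the MBF targets it was 0.64 for *yox1*, 0.53 for *cig2*, 1.25 for *cdc18*, 1.40 for *cdt1*, 1.57 for *cdt2*, 0.63 for *cdc22*, 0.60 for *mrc1*, 0.82 for *tos4*, 0.62 for *dut1*, 0.49 for *ssb1*, 0.68 for *rad21*, 0.77 for *psm3* and 0.62 for *ctp1*. Among the other lists it was 0.90 for *rev1*, 0.80 for *mid2*, 1.23 for *agn1*, 0.94 for *cfh4* and -0.45 for *cdc2*. Outside the lists it was 0.50 for *klp8*, -0.53 for *med15*, -1.17 for *pfl9*, -1.93 for *rds1*, -1.17 for *gsf2*, -0.99 for SPAPB24D3.07c and -0.67 for *pls1*. The genes with positive values were lower in Nrm1-SD at 60 min by more than at 80 min, or crossed over.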

How the results depend on the processing

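No named call reversed under the alternatives that were run, but the MBF median at 80 min (-0.05) changed sign without replicate 1 of Nrm1 (0.0057) or replicate 2 of Nrm1-SD (0.031) at 80 min. With only the 8 libraries in the fit, 142 features were higher and 166 lower at 60 min, 75 higher and 80 lower at 80 min, the difference changed between the times for 113, and 4 MBF targets were lower at 80 min. edgeR called a difference at 60 min unlike the asynchronous one for 42 features and DESeq2 for 40, and DESeq2 called 50 features higher at 60 min. At an adjusted p under 0.05, 47 were higher at 60 min, 17 were higher at 80 min and 46 differed from the asynchronous difference. Calls of at least 1 on the log2 scale numbered 16 higher and 30 lower at 60 min, 9 higher and 16 lower at 80 min, 10 for the change between times, 37 against asynchronous, 5 and 0 for the MBF targets at 60 and 80 min and 10 for second-cycle features at 60 min. Leaving out each library in turn gave 26 to 76 higher and 56 to 98 lower at 60 min, 10 to 26 higher and 25 to 48 lower at 80 min, 13 to 47 for the change between times, 39 to 71 against asynchronous, 16 to 18 MBF targets lower at 60 min and 2 at 80 min, 23 to 34 second-cycle features lower at 60 min and 4 at 80 min, and MBF medians of -0.75 to -0.72 at 60 min and -0.14 to 0.031 at 80 min. The lowest counts at 60 min came without replicate 2 of Nrm1 at 60 min (26 and 56) and without replicate 1 of Nrm1-SD at 60 min (27 higher), and at 80 min without replicate 2 of Nrm1 (12 and 25) or replicate 1 of Nrm1-SD (10 higher). The count of higher features at 60 min was 43 without replicate 1 of Nrm1 and 48 without replicate 2 of Nrm1-SD at 60 min, and the count of lower ones was 62 without that Nrm1 library. The count for the change between times was 17 without replicate 2 of Nrm1 and 18 without replicate 1 of Nrm1-SD at 60 min, and 13 and 14 without the same replicates at 80 min. The count against asynchronous was 39 without replicate 2 of Nrm1 at 60 min and 41 and 45 without replicates 1 and 2 of Nrm1-SD at 60 min. Of 102 named calls 67 held without each library in turn. A replicate block in the fit gave 84 and 101 at 60 min, 27 and 41 at 80 min, 48 for the change between times, 86 against asynchronous, 18 and 2 for MBF targets and 34 and 4 for second-cycle features, and *pfl9* at 80 min was the 1 named call that changed. A sample of an arm left with 1 library is assumed to vary like the other conditions. The cause of these shifts was not tested. With 2 libraries per strain and time point, small differences may have gone undetected at this depth, although some were called.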
